A study of Mus musculus with 9 samples.

Results

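The genes described here are 44 mouse genes that interferons are known to induce. They comprise the Ifit, Oas and Mx families of type I interferon targets, the guanylate-binding proteins (Gbp) and immunity-related GTPases (Irgm1, Irgm2, Igtp, Iigp1 and Tgtp1), and a mixed set of sensors, ISG15-system genes, effectors, poly(ADP-ribose) polymerases and Stat2. They were chosen by symbol in the platform's probe annotation, and 36 of the 44 had a probe set, a group of probes on the array that read one transcript region, annotated with that symbol alone, among 19938 genes measured. Each of the 36 was read by 1 such probe set. Oas1g, Isg15, Gbp2, Gbp6, Irgm2, Igtp and Tgtp1 lay only on probe sets annotated with several symbols, and Ifi44 was unnamed here, so these 8 have no value.

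Expression was measured in femoral bone marrow of C57BL6 mice on 9 Affymetrix whole-transcript arrays, 3 in each of 3 groups. The first group was whole marrow of wild type mice, taken directly for RNA, with 1 mouse per array. The second was wild type marrow depleted of lineage-positive cells with a Miltenyi Biotec kit, and each of its arrays held a pool of 3 mice. The third was whole marrow of 3 ERG transgenic mice, killed once signs of myeloid leukemia were seen. The promoter that drives the transgene, the ages of the mice and anything else that the groups share were not found in the labels. Leukemias 1 to 3 are numbered in accession order, and the titles of leukemias 1 and 2 differ by a final digit, although the design text counts 3 transgenic mice.

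Type I interferons bind the Ifnar1 and Ifnar2 receptor chains, and the kinases Jak1 and Tyk2 then act on signal transducers such as Stat2, which joins Irf9 in a complex that binds the interferon-stimulated response element (ISRE) in target promoters. Interferon gamma signals through Ifngr1 and Ifngr2 to promoters that hold the gamma-activated site (GAS), and it is the main inducer of the Gbp and immunity-related GTPases, which act on the membranes around intracellular pathogens. In bone marrow, interferon signalling is known to act on blood stem cells as well as on mature myeloid and lymphoid cells.

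Both motifs were searched for in the genes' promoters, as a description of sequence features. The genes were chosen as interferon-induced, so the shares with a match are not independent of that choice. RefSeq promoter windows of build GRCm38.p6, running from 250 bases before to 50 bases after an annotated transcript start, were matched by symbol for 31 of the 44 genes. Oas2, Mx1, Mx2, Dhx58, Zbp1, Usp18, Rtp4, Ifi27, Parp9, Parp14, Gbp4, Gbp6 and Iigp1 had no entry. The ISRE core was searched as GAAANNGAAA and the GAS core as TTCNNNGAA, on both strands, with overlapping matches counted. An ISRE core was present in 21 of the 31 genes (67.7%), against 3.44% of all 32851 windows of that length. It was found in all 8 of the GTPase genes with a window, in 5 of 8 Ifit and Oas genes and in 8 of the 15 others. A GAS core was present in 11 of the 31 (35.5%), against 8.3% of all windows, and in 5 of the 8 GTPase genes but 2 of the 8 Ifit and Oas genes. Counted over genes with at least 1 window, the background shares were 3.99% for the ISRE core and 9.55% for the GAS core, of 27025 genes.

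Stretches of 100 bases upstream of the start are shown for 7 genes that have a match and whose values differed in kind below. Ifit1 and Ifit3 (chr19:34640744-34640843, plus strand, and chr19:34583347-34583446, plus strand), Oas3 (chr5:120777695-120777794, minus strand) and Rsad2 (chr12:26456533-26456632, minus strand) are among the genes that were lower in lineage-negative than in whole marrow. Gbp7 (chr3:142530223-142530322, plus strand) and Irgm1 (chr11:48871421-48871520, minus strand) stand for the GTPases. Isg20 (chr7:78913290-78913389, plus strand) was the gene with a higher leukemia than whole marrow level. Each is written 5′ to 3′ on the gene's own strand, and capitals mark the ISRE and GAS cores.
Ifit1: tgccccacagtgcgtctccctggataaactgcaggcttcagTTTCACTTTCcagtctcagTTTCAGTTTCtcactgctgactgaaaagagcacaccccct
Ifit3: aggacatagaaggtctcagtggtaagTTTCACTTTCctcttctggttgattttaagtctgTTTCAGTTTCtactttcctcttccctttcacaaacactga
Oas3: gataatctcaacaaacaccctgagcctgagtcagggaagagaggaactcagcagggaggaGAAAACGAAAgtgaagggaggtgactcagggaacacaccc
Rsad2: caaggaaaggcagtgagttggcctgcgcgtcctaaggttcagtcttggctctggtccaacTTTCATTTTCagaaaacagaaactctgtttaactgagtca
Gbp7: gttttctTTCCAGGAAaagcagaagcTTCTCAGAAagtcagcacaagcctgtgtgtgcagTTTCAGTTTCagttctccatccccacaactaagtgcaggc
Irgm1: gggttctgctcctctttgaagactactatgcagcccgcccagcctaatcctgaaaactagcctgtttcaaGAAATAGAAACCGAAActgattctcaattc
Isg20: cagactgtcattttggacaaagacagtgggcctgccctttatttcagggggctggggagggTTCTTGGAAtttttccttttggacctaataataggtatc

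Ifit1 and Ifit3 each carry 2 ISRE cores in reverse orientation with the letters TTTCACTTTC and TTTCAGTTTC, which start at -104 and -85 in Ifit1 and at -156 and -122 in Ifit3 (counted from 0 at the first transcribed base). Oas3 has 1 core at -75 and Rsad2 1 at -120. In Irgm1 the cores at -30 and -24 overlap, so that the capitals form a single run. Gbp7 holds both motifs, with GAS cores at -106 and -87 and an ISRE core at -53, whereas the Isg20 stretch holds a GAS core at -73 and no ISRE core. A match describes these letters and does not show that a factor binds there.

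**Figure D1:**
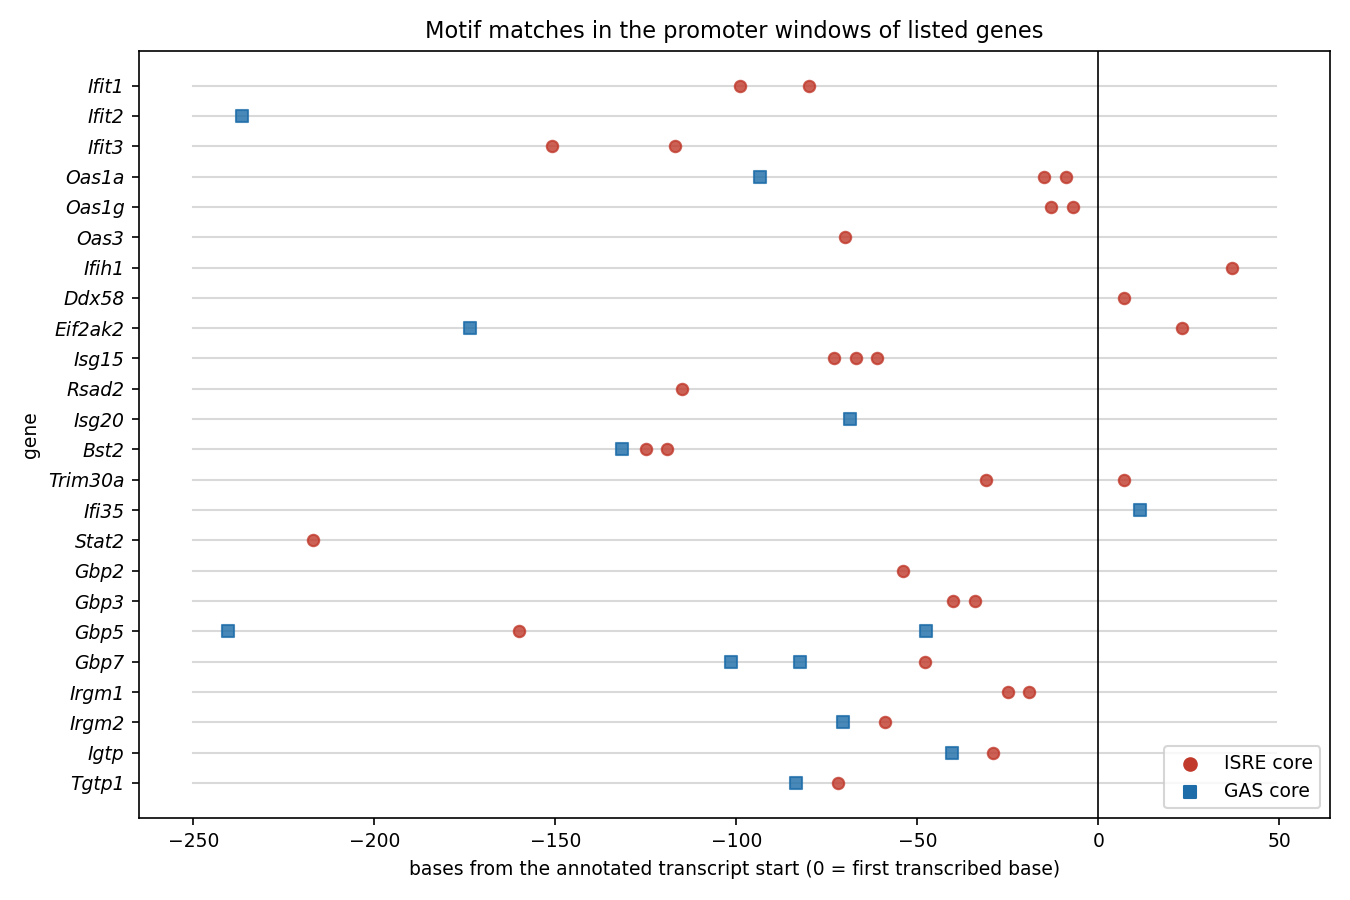
Position of each motif match in bases from the annotated transcript start (horizontal axis, 0 is the first transcribed base) for the genes with at least 1 match, with circles for ISRE cores and squares for GAS cores. Among the GTPases, Gbp5, Gbp7, Irgm2, Igtp and Tgtp1 hold both motifs, and most matches lie before the start.

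Some facts of the arrays bear on every value below. The median intensity of an array lay between 32.3 and 34.4, and levels are given as log2 intensity, on which the median of all probe sets was 5.06. Below that median a level is hard to tell from background, so a fold against such a group is written as a lower bound. The probe set for mouse Erg read 6.19 to 6.60 in the leukemias and 7.01 to 7.60 in whole marrow. Whether it detects the transgene is not given, so it does not check the labels. Whole marrow array 2 differed from the other single-mouse arrays in the X-inactivation transcript Xist, at 4.32 against 10.59 to 11.11, and in the Y-linked Eif2s3y, at 8.53 against 3.98 to 4.18. The pools held both transcripts, at 8.80 to 10.07 and 7.89 to 8.23. These are the readings of a male on whole marrow array 2, of females on the other single-mouse arrays and of both sexes in the pools. Sex was therefore not balanced between the groups. It was not in the model, and its part in the values below was not tested.

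Levels of cell type markers also differed between the groups, and in bulk marrow fewer cells of a type and less RNA per cell cannot be told apart. Counts of markers as higher or lower are of those that passed an adjusted p of 0.05 in limma. Among all genes, 9.93% were lower and 14.6% higher in the leukemias than in whole marrow. Lineage-negative marrow was lower than whole marrow for 13% and higher for 21.7%. The leukemias were lower than lineage-negative marrow for 5.74% and higher for 2.95%. All 9 mature neutrophil markers passed as lower in lineage-negative than in whole marrow and as higher in the leukemias than in lineage-negative marrow. Leukemia levels of all 9 lay below whole marrow without overlap, and 6 of these differences passed. Their summed intensity was 33179 to 38216 in whole marrow, 525 to 1604 in lineage-negative marrow and 12206 to 19772 in the leukemias. The 6 B cell markers were lower in both other groups than in whole marrow, with sums of 888 to 3606, 234 to 363 and 306 to 467, and 5 of the 6 had a lineage-negative mean below the median intensity. Plasmacytoid dendritic cell markers were Siglech, Ccr9, Tcf4, Pacsin1, Cox6a2, Cd300c, Ly6d and Spib, and whether B cells contribute to them was not tested. These markers summed to 917 to 2951, 530 to 805 and 519 to 715. Of the 8, 5 were lower in the leukemias and 6 in lineage-negative marrow than in whole marrow. Of the 9 T and NK cell markers, 6 and 5 were lower, and sums were 641 to 826, 320 to 481 and 264 to 393. Monocyte and macrophage markers summed to 2899 to 4556, 891 to 1745 and 2018 to 4170, and the leukemias were lower than whole marrow for 2 of 8 and higher than lineage-negative marrow for 3 of 8. Part of the markers of other cell types were higher outside whole marrow. Of 4 erythroid markers, 2 passed as higher in the leukemias and 2 in lineage-negative marrow than in whole marrow. Stem and progenitor markers passed as higher in lineage-negative than in whole marrow for 5 of 7, and megakaryocyte and platelet markers for 3 of 4, while 4 of 7 and 2 of 4 passed as lower in the leukemias than in lineage-negative marrow. Between leukemias and whole marrow 1 of the 7 was higher and 1 lower, and 2 of the 4 were lower. The part of these lists in the results below was not tested.

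Against wild type whole marrow, the leukemias had lower levels of part of the interferon-induced genes, led by Rtp4, Oas2, Ddx58, Usp18, Trim30a and Oas3, and a higher level of Isg20. Of the 36 genes, 14 (38.9%) were lower, 1 was higher and 21 did not pass an adjusted p of 0.05 (limma, which fits a linear model to each gene and shares information on the spread between genes, with Benjamini-Hochberg adjustment over all genes). Among all genes tested, 9.93% were lower and 14.6% were higher, or 24.5% in all. The median log2 difference of the 36 was -0.53, against -0.02 over all genes. The 3 leukemia values lay below the 3 whole marrow values for 17 of the 36, where 17.7% of all genes did so, and above them for 1, where 19.4% did so. By family, 3 of 10 Ifit, Oas and Mx genes were lower, as were 11 of the 20 sensors, effectors and related genes. None of the 6 GTPases passed in either direction. Among the GTPases, Gbp5 and Iigp1 had means under the median intensity in every group, and Gbp4 in the leukemias and lineage-negative marrow.

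Between leukemias and lineage-negative marrow 4 of these genes passed the threshold. Ifit3 and Rsad2 were higher and Usp18 and Bst2 were lower, so 2 of 36 (5.56%) passed in each direction, where 2.95% of all genes were higher and 5.74% lower, or 8.69% in all. The count of higher genes rose to 4 with centring on the 75th percentile or with the genes alone whose mean in some group was above the median (3.59% and 5.84% of all genes) and to 8 when arrays were weighted by their spread (6.96%), and it was 1 to 3 with an array left out. The median difference was -0.04 (0.01 over all genes), and its sign changed to 0.04 with cyclic loess, 0.00 with centring on the 75th percentile, 0.12 with such weights and 0.10 without leukemia 2, so no direction is given for it. Values did not overlap for 12 genes, with the leukemias above in 8 (11.6% of all genes) and below in 4 (16.3%). The 10 Ifit, Oas and Mx genes had a median difference of 0.60 (0.28 without leukemia 2), and 5 of them lay above lineage-negative marrow on every array.

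Lineage-negative marrow was itself lower than whole marrow for 17 of the 36 (47.2%; 13% of all genes were lower) and higher for Isg20 and Gbp7 (21.7% of all genes were higher, and 34.7% passed in either direction). The median difference was -0.54, against -0.04 over all genes, and lineage-negative values lay below all whole marrow values for 19 (23.4% of all genes) and above for 3 (26.6%). Among the Ifit, Oas and Mx genes 6 of 10 were lower, with a median of -0.90. Without whole marrow 1 or without lineage-negative 3 the 17 became 10 and 9 (10.8% and 9.77% of all genes), and 9 of the 17 passed under every alternative tried. The 3 comparisons share their groups, so the values of a gene in them are not independent.

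**Figure D2:**
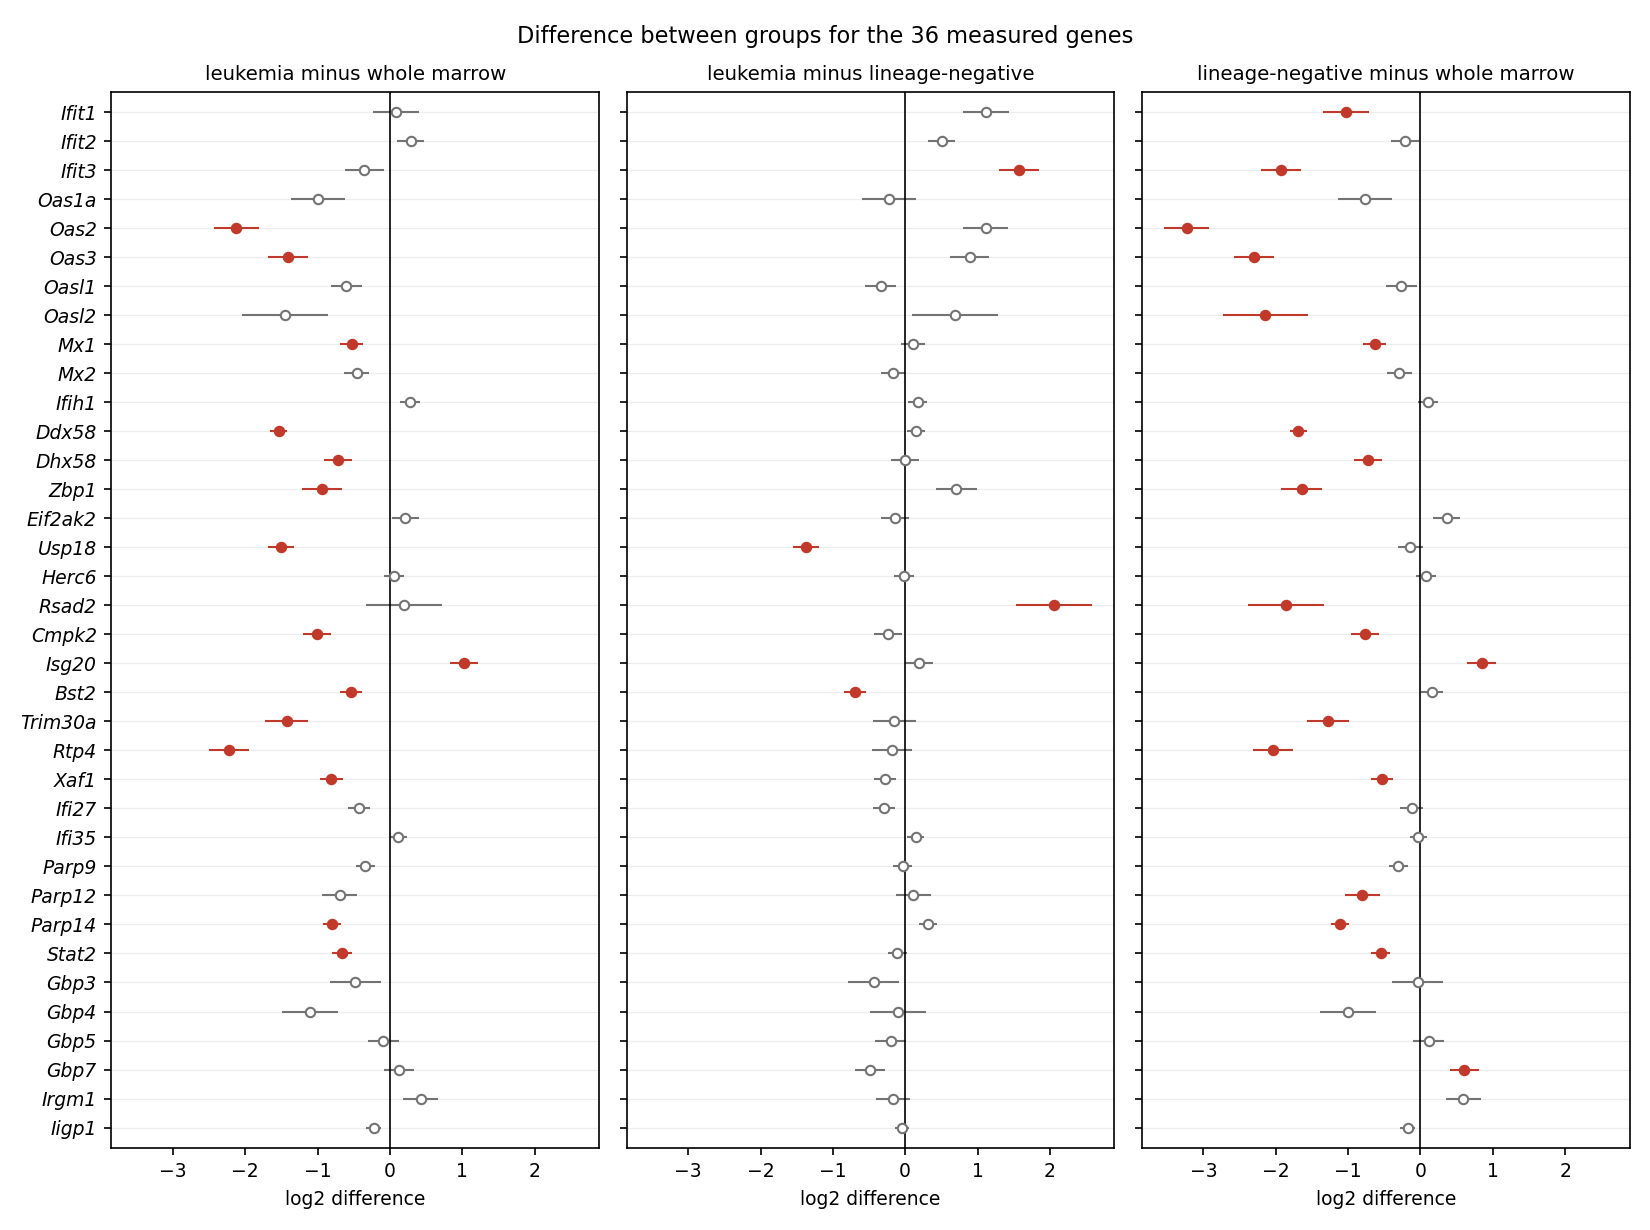
Log2 difference of each of the 36 measured genes (points) with its standard error (bars) in the 3 comparisons. Filled red points passed an adjusted p of 0.05 in limma. Most filled points in the left and right panels lie below 0, and the middle panel has 4.

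Ifit1 binds the ends of foreign RNA and blocks its translation, and Ifit3 is its partner. Ifit3 levels were 8.09, 6.82 and 7.31 in whole marrow, 5.43, 5.49 and 5.53 in lineage-negative marrow and 6.95, 6.91 and 7.31 in the leukemias. The lineage-negative pools were low and close together, while the leukemias lay within the range of whole marrow. The leukemias exceeded lineage-negative marrow by 1.57 ± 0.27 log2 (SE; 2.98-fold, limma adjusted p = 0.0115) and their difference from whole marrow was -0.35 ± 0.27 (adjusted p = 0.432). Lineage-negative marrow was 1.93 log2 units below whole marrow, a difference of -1.93 ± 0.27 (3.80-fold, adjusted p = 0.000812).

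Ifit1 read 6.68, 6.12 and 5.59 in whole marrow, 5.24, 4.87 and 5.19 in lineage-negative marrow and 5.59, 6.59 and 6.46 in the leukemias. Again the pools were below every other array, and leukemia 1 was at the level of the lowest whole marrow array. Only the difference between the wild type groups passed, at -1.03 ± 0.32 (2.04-fold, limma adjusted p = 0.0332). It did not pass without any one of the 3 lineage-negative arrays or without whole marrow 1 or 2 (0.0619 to 0.109). The leukemias against lineage-negative marrow gave 1.11 ± 0.32 (adjusted p = 0.066; 0.0238 without leukemia 1), with no overlap. For Ifit2, a related RNA-binding family member, levels were 6.05, 6.39 and 6.05, then 5.92, 6.07 and 5.85, then 6.16, 6.91 and 6.28. Its leukemia values were above the lineage-negative ones, but no Ifit2 difference passed (adjusted p = 0.153 to 0.433).

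Oas enzymes sense double-stranded RNA and make the oligoadenylates that activate the ribonuclease RNase L. Oas2 was 8.17, 8.60 and 7.57 in whole marrow, 5.09, 4.86 and 4.68 in lineage-negative marrow and 6.45, 5.40 and 6.11 in the leukemias. The 3 groups did not overlap, and the leukemias stood between the wild type groups. Leukemias were below whole marrow by a difference of -2.12 ± 0.31 (4.35-fold, limma adjusted p = 0.00212) and lineage-negative marrow by -3.23 ± 0.31, at least 9.41-fold (adjusted p = 0.000144), because the lineage-negative mean lay under the median intensity. The difference between leukemias and lineage-negative marrow, 1.11 ± 0.31, did not pass (adjusted p = 0.0616; 0.0205 without leukemia 2 and 0.0443 without whole marrow 3).

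Oas3 followed the same order. Its levels were 7.62, 7.95 and 6.75 in whole marrow, 5.06, 5.34 and 5.02 in lineage-negative marrow and 5.77, 6.21 and 6.11 in the leukemias, again without overlap. The leukemias differed from whole marrow by -1.41 ± 0.27 (2.66-fold, limma adjusted p = 0.00695). From lineage-negative marrow they differed by 0.89 ± 0.27 (limma adjusted p = 0.0852), with 0.0154 without whole marrow 3 and 0.023 in a fit of the 2 groups compared. Between the wild type groups the difference was -2.30 ± 0.27 (4.93-fold, adjusted p = 0.000348).

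The other Oas genes varied more between mice or changed less. Oasl2, an Oas-like gene, was 8.82, 6.53 and 7.74 in whole marrow, 5.78, 5.43 and 5.45 in lineage-negative marrow and 5.53, 7.32 and 5.89 in the leukemias. Whole marrow 2 was the lowest of its group and leukemia 2 the highest of its own. Lineage-negative marrow was lower than whole marrow, by a difference of -2.14 ± 0.59 (limma adjusted p = 0.0211; 0.054 to 0.0644 without lineage-negative 2 or 3 or whole marrow 1 or 3). Leukemias against whole marrow gave -1.45 ± 0.59 (adjusted p = 0.116), which became -1.99 (0.0362) without leukemia 2 and -2.03 (0.0327) without whole marrow 2, but -0.89 (0.31) without whole marrow 1.

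Oas1a read 5.76, 6.69 and 5.21 in whole marrow, 5.14, 5.25 and 4.96 in lineage-negative marrow and 5.14, 4.27 and 5.27 in the leukemias. The groups overlapped in every comparison, and its largest difference was -0.99 ± 0.37, leukemias against whole marrow (limma adjusted p = 0.0903). It became -1.33 (0.0323) without whole marrow 3 and -0.59 (0.236) without whole marrow 2. Oasl1, a relative that limits translation of Irf7, was 6.56, 7.46 and 6.93, then 6.51, 7.00 and 6.66, then 6.38, 6.35 and 6.41. The leukemias lay below all wild type arrays and within 0.1 of each other, yet neither difference passed (adjusted p = 0.073 against whole marrow, 0.0247 without whole marrow 1, and 0.418 against lineage-negative marrow).

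Mx1 and Mx2 are dynamin-like GTPases that restrict viruses, and C57BL6 mice are known to carry a defective Mx1 allele. Mx1 read 5.21, 5.37 and 5.52 in whole marrow, 4.86, 4.70 and 4.63 in lineage-negative marrow and 5.14, 4.47 and 4.90 in the leukemias. Whole marrow was highest on every array, and both other group means lay under the median intensity. Mx1 was lower in the leukemias, by at least 1.44-fold (-0.53 ± 0.16, limma adjusted p = 0.0455), and in lineage-negative marrow, by at least 1.55-fold (-0.64 ± 0.16, adjusted p = 0.0152). The first of these calls ended without any one array other than leukemia 1 (0.0599 to 0.135), and without leukemia 2 the difference was -0.35. The second ended without lineage-negative 3 (0.0555) or whole marrow 3 (0.0536). Mx2, at 4.56, 4.15 and 4.87, then 4.29, 4.12 and 4.29, then 4.08, 3.90 and 4.22, was under the median intensity on every array and passed in no comparison, although both differences from whole marrow passed without whole marrow 2 (0.0134 and 0.0265).

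**Figure D3:**
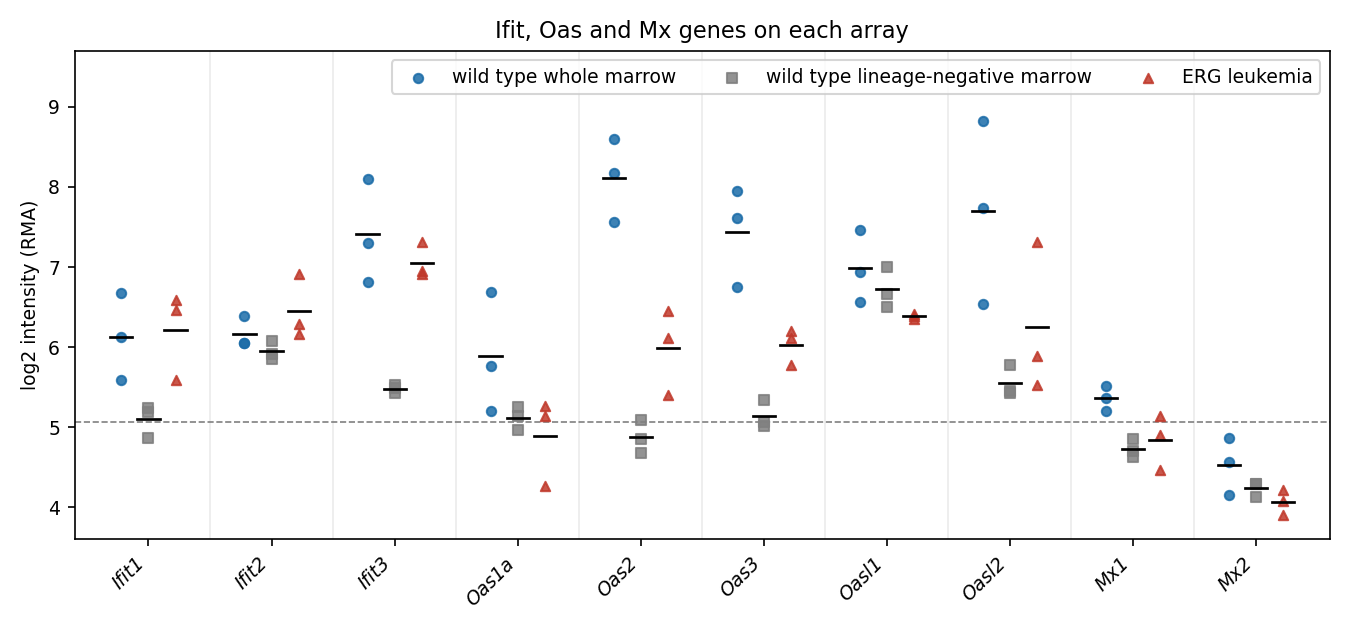
Log2 intensity (vertical axis) of the Ifit, Oas and Mx genes on each array, with circles for whole marrow, squares for lineage-negative marrow, triangles for the leukemias, bars for group means and a dashed line at the median of all probe sets, 5.06. The squares of Ifit3, Oas2 and Oas3 lie below all other points of those genes, and Oas2 and Oas3 triangles lie between the other groups.

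Summed over the 10 Ifit, Oas and Mx genes, intensity was 1018 to 1589 in whole marrow, 603 to 751 in the leukemias and 419 to 464 in lineage-negative marrow, with no overlap between groups. The 5 Oas genes gave 670 to 1086, 308 to 377 and 234 to 279 in that order. For the 3 Ifit genes, the leukemias (243 to 337) overlapped whole marrow (266 to 442), and both lay above lineage-negative marrow (140 to 141).

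The cytosolic RNA sensors did not share one pattern. Ddx58 (RIG-I) was 8.79, 8.62 and 8.68 in whole marrow, 7.15, 6.75 and 7.11 in lineage-negative marrow and 7.18, 7.01 and 7.28 in the leukemias. Leukemias and lineage-negative pools overlapped, well below a tight whole marrow group. The difference from whole marrow was -1.54 ± 0.12 for the leukemias (2.90-fold, limma adjusted p = 0.000422) and -1.69 ± 0.12 for lineage-negative marrow (3.22-fold, adjusted p = 5.98e-05). Ifih1 (MDA5), the sister sensor, read 7.30, 7.45 and 7.08, then 7.25, 7.57 and 7.32, then 7.51, 7.38 and 7.76. Its groups overlapped throughout and its differences were 0.28, 0.17 and 0.11 (adjusted p = 0.195, 0.557 and 0.607).

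Dhx58 (LGP2), a regulator of both sensors, was 6.81, 6.96 and 6.38, then 6.01, 6.21 and 5.75, then 5.95, 5.74 and 6.29. It was lower by 0.72 log2 units, with a difference of -0.72 ± 0.19 in both comparisons with whole marrow (limma adjusted p = 0.0272 for the leukemias and 0.0188 for lineage-negative marrow). The leukemia call ended without leukemia 1 or 2 or whole marrow 1 or 2 (0.0681 to 0.0889) and that of lineage-negative marrow without lineage-negative 3 or whole marrow 1 or 2 (0.0622 to 0.0703). Zbp1, a nucleic acid sensor that can trigger necroptosis, read 6.73, 7.14 and 6.58 in whole marrow, 5.29, 5.05 and 5.18 in lineage-negative marrow and 5.77, 5.31 and 6.55 in the leukemias. Leukemia 3 nearly reached whole marrow, and the pools were lowest on every array.

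Zbp1 was lower in lineage-negative marrow, with a difference of -1.64 ± 0.28 from whole marrow (3.13-fold, limma adjusted p = 0.00208). Against lineage-negative marrow the leukemias passed only without leukemia 2, among the arrays left out (0.0448). For the leukemias against whole marrow it was -0.94 ± 0.28 (adjusted p = 0.0414), a call that was lost without any one array other than leukemia 3 (0.0548 to 0.132). Eif2ak2 (PKR), the kinase that halts translation on double-stranded RNA, was 6.87, 6.26 and 6.19, then 6.83, 6.95 and 6.61, then 6.74, 6.81 and 6.41. All groups overlapped for this gene and none of its differences passed (adjusted p = 0.192 to 0.762), although that between the wild type groups did so without whole marrow 1 (0.0222).

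ISG15 is a ubiquitin-like protein that Herc6 attaches and Usp18 removes in mice, and Usp18 also blocks signalling at the type I receptor. Usp18 levels were 7.25, 7.00 and 7.43 in whole marrow, 7.20, 7.36 and 6.70 in lineage-negative marrow and 5.58, 5.73 and 5.85 in the leukemias. The wild type groups overlapped and every leukemia lay below both. Leukemia levels of Usp18 were lower than whole marrow by 2.84-fold (-1.51 ± 0.18, limma adjusted p = 0.00109) and than lineage-negative marrow by 2.58-fold (-1.37 ± 0.18, adjusted p = 0.00375), while the wild type groups differed by -0.14 ± 0.18 (adjusted p = 0.598). Both leukemia calls passed under every alternative tried. Herc6 had levels of 7.61, 7.23 and 7.64, then 7.57, 7.78 and 7.37, then 7.57, 7.65 and 7.43, with overlap in all comparisons and adjusted p of 0.717 to 0.965.

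Bst2 (tetherin), which holds budding virions at the cell surface, was the other gene lower in the leukemias than in both wild type groups. It read 6.06, 6.24 and 6.54 in whole marrow, 6.69, 6.34 and 6.27 in lineage-negative marrow and 5.71, 5.61 and 5.90 in the leukemias, which were lowest without overlap. The differences were -0.54 ± 0.15 (1.45-fold, limma adjusted p = 0.0337) and -0.69 ± 0.15 (1.61-fold, adjusted p = 0.0285). Against whole marrow the call was lost without leukemia 1 or 2 or whole marrow 2 or 3 (0.0699 to 0.1), and against lineage-negative marrow without leukemia 1 or 2 or lineage-negative 1 or 2 (0.0621 to 0.091).

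Rsad2 (viperin), an enzyme that makes an antiviral nucleotide, had the widest spread among the leukemias. Levels were 8.02, 6.47 and 7.32 in whole marrow, 5.26, 5.55 and 5.42 in lineage-negative marrow and 6.22, 8.01 and 8.18 in the leukemias. Leukemia 1 lay below whole marrow 2, while leukemias 2 and 3 were at the level of whole marrow 1. The leukemias were above lineage-negative marrow by 4.16-fold (2.06 ± 0.53, limma adjusted p = 0.0482), a call lost without any one array other than leukemia 1 and whole marrow 2 (0.0552 to 0.139). Lineage-negative marrow was below whole marrow (-1.86 ± 0.53, adjusted p = 0.0241; 0.057 to 0.0846 without any one of its 3 arrays or without whole marrow 1 or 3), and leukemias against whole marrow gave 0.20 ± 0.53 (adjusted p = 0.848).

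Cmpk2, a nucleotide kinase encoded beside Rsad2, differed from it in the leukemias. It was 7.34, 6.96 and 7.26, then 6.46, 6.49 and 6.30, then 5.72, 6.30 and 6.53, with every whole marrow array above all others. Its difference from whole marrow was -1.01 ± 0.20 in the leukemias (2.01-fold, limma adjusted p = 0.00686) and -0.77 ± 0.20 in lineage-negative marrow (adjusted p = 0.0142; 0.0522 without lineage-negative 3 and 0.0536 without whole marrow 1). Whether the leukemias' differences for Rsad2 and Cmpk2 were unequal was not tested.

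Rtp4, a receptor chaperone that interferon induces, had the lowest difference of the 36 genes between leukemias and whole marrow. It read 8.64, 8.35 and 7.68 in whole marrow, 6.32, 6.46 and 5.77 in lineage-negative marrow and 6.21, 5.64 and 6.14 in the leukemias. Leukemias and pools overlapped, more than a log2 unit below whole marrow. The differences from whole marrow were -2.23 ± 0.28 (4.68-fold, limma adjusted p = 0.00124) and -2.04 ± 0.28 (4.12-fold, adjusted p = 0.000633).

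Trim30a, a TRIM-family protein that restrains inflammatory signalling, showed the same arrangement. Its levels were 10.04, 9.99 and 10.12 in whole marrow, 9.06, 8.40 and 8.85 in lineage-negative marrow and 8.83, 7.90 and 9.14 in the leukemias, of which leukemia 2 was lowest. The differences were -1.43 ± 0.29 (2.69-fold, limma adjusted p = 0.00869) and -1.28 ± 0.29 (2.43-fold, adjusted p = 0.00886). Xaf1, which antagonises the apoptosis inhibitor Xiap, was also lower in both, by -0.81 ± 0.15 (adjusted p = 0.00654) and -0.53 ± 0.15 (adjusted p = 0.0272). The second Xaf1 call was lost without lineage-negative 1 or 3 or whole marrow 1 or 2 (0.06 to 0.0946).

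Isg20, an RNA exonuclease, went the other way. It was 8.65, 8.56 and 9.10 in whole marrow, 9.38, 9.90 and 9.56 in lineage-negative marrow and 9.49, 9.99 and 9.92 in the leukemias. Every whole marrow array was below all others, and leukemias and pools overlapped. Isg20 was higher in the leukemias by 2.04-fold (1.03 ± 0.19, limma adjusted p = 0.00608) and in lineage-negative marrow by 1.79-fold (0.84 ± 0.19, adjusted p = 0.00902), and both calls passed under every alternative. Ifi35, a binding partner of Nmi, read 6.42, 6.35 and 6.40, then 6.24, 6.61 and 6.23, then 6.54, 6.34 and 6.63, and had the smallest differences of the effectors against whole marrow (0.11 and -0.03). Ifi27, a mitochondrial protein, had leukemia values of 7.23 to 7.27 below all 6 wild type values of 7.32 to 7.89, with -0.42 ± 0.15 against whole marrow (adjusted p = 0.0791), which ran from -0.31 (0.225) without whole marrow 2 to -0.60 (0.0118) without whole marrow 3.

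Parp9, Parp12 and Parp14 are ADP-ribosyltransferases of the antiviral response. Parp14 read 7.65, 7.47 and 7.83 in whole marrow, 6.54, 6.70 and 6.39 in lineage-negative marrow and 6.76, 6.77 and 7.03 in the leukemias, so the groups did not overlap. It was lower in the leukemias (-0.80 ± 0.13, 1.74-fold, limma adjusted p = 0.00283) and in lineage-negative marrow (-1.11 ± 0.13, 2.16-fold, adjusted p = 0.000277) than in whole marrow. Parp12, at 7.35, 7.79 and 7.17, then 6.77, 6.66 and 6.48, then 6.59, 6.35 and 7.29, was lower in lineage-negative marrow (-0.80 ± 0.24, adjusted p = 0.0312), and leukemia 3 lay within the whole marrow range (without it the leukemias were lower too, adjusted p = 0.0109). The lineage-negative call was lost without any one lineage-negative array or whole marrow 1 or 2 (0.0544 to 0.106). Parp9 was 7.07, 6.85 and 6.89, then 6.68, 6.78 and 6.44, then 6.73, 6.33 and 6.74, above all other arrays in whole marrow but not past the threshold (adjusted p = 0.108 and 0.12).

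Stat2, the signal transducer particular to type I and type III interferons, was 7.38, 7.41 and 7.34 in whole marrow, 6.77, 6.98 and 6.72 in lineage-negative marrow and 6.84, 6.40 and 6.90 in the leukemias. Whole marrow was above all other arrays. The differences from it were -0.66 ± 0.13 for the leukemias (1.58-fold, limma adjusted p = 0.0081) and -0.55 ± 0.13 for lineage-negative marrow (1.47-fold, adjusted p = 0.0113).

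**Figure D4:**
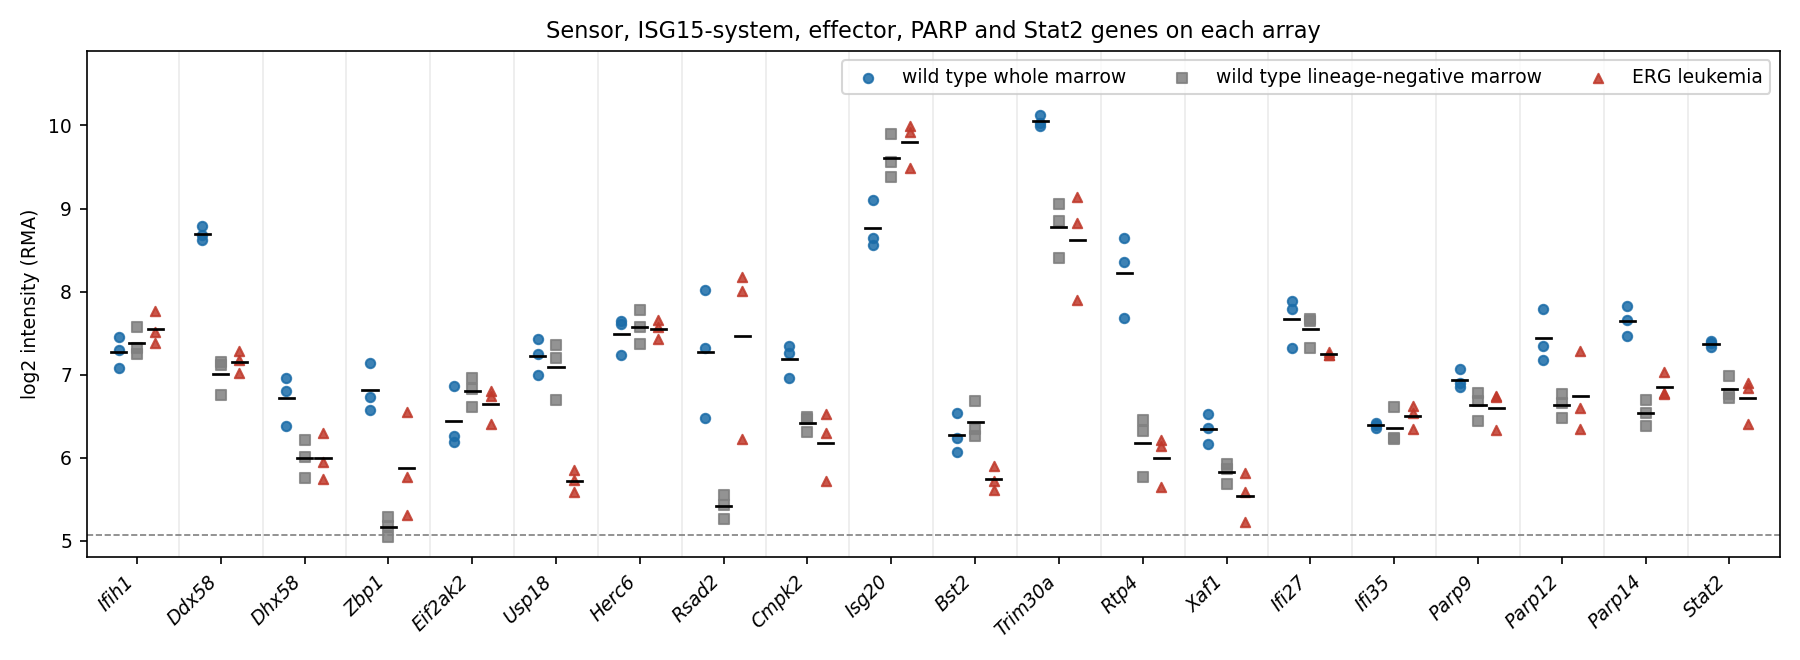
Log2 intensity (vertical axis) on each array of the sensors, ISG15-system genes, effectors, poly(ADP-ribose) polymerases and Stat2, with symbols, mean bars and the dashed median line at 5.06. Usp18 and Bst2 triangles lie below both wild type groups, Isg20 circles lie below both other groups, and Rsad2 triangles run from 6.22 to 8.18.

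Guanylate-binding proteins coat the vacuoles of intracellular pathogens, and Irgm1 is a regulator of the immunity-related GTPases on host membranes. Gbp7 read 7.24, 7.28 and 7.29 in whole marrow, 7.73, 7.996 and 7.91 in lineage-negative marrow and 6.92, 7.38 and 7.88 in the leukemias. The pools lay above every whole marrow array, and the leukemias spanned both groups. Gbp7 was higher in lineage-negative than in whole marrow by 1.52-fold (0.61 ± 0.20, limma adjusted p = 0.0474), a call lost with cyclic loess (0.33, 0.32), with centring on the 75th percentile (0.48, 0.111) and without any one of the 6 wild type arrays or leukemia 2 (0.0574 to 0.138). Leukemias differed by 0.12 ± 0.20 from whole marrow and by -0.48 ± 0.20 from lineage-negative marrow (adjusted p = 0.741 and 0.202; the second 0.0322 without leukemia 3).

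Irgm1 was 7.65, 6.68 and 7.49, then 7.87, 8.06 and 7.66, then 7.91, 7.57 and 7.60, so the pools were above all whole marrow arrays, of which array 2 was lowest. The wild type groups differed by 0.59 ± 0.24 (limma adjusted p = 0.0897), which became 0.78 (0.045) without whole marrow 1 and 0.29 (0.194) without whole marrow 2. Leukemias differed from whole marrow by 0.42 ± 0.24 (adjusted p = 0.256), or 0.13 (0.65) without whole marrow 2. Gbp4 read 6.24, 4.97 and 6.55 in whole marrow, 4.82, 5.00 and 4.94 in lineage-negative marrow and 4.84, 4.33 and 5.30 in the leukemias. Whole marrow 2 was at the level of the other groups while whole marrow 1 and 3 stood apart from them. The lineage-negative and leukemia means lay under the median intensity. The leukemias' difference was -1.10 ± 0.39 (adjusted p = 0.0729) and became -1.57 (0.00641) without whole marrow 2 and -0.78 (0.211) without whole marrow 3. That of lineage-negative marrow was -0.998 ± 0.39 (0.0789) and became -1.47 (0.00406) and -0.68 (0.232) without the same arrays.

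Gbp3 levels were 6.52, 6.33 and 6.38, then 6.64, 6.20 and 6.27, then 6.06, 5.02 and 6.72, where leukemia 2 was lowest and leukemia 3 highest of all arrays. Gbp5 was 4.87, 4.61 and 4.97, then 5.10, 4.92 and 4.76, then 4.71, 4.26 and 5.21, mostly below the median intensity and with leukemias 2 and 3 at the extremes again. Iigp1, an effector GTPase, read 4.81, 4.84 and 5.15, then 4.76, 4.75 and 4.76, then 4.67, 4.64 and 4.81. Both Gbp5 and Iigp1 had means under the median intensity in every group. No difference of Gbp3, Gbp5 or Iigp1 passed in limma (adjusted p = 0.148 to 0.946). Gbp genes have close paralogs, and whether a probe set also detects a paralog was not tested.

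**Figure D5:**
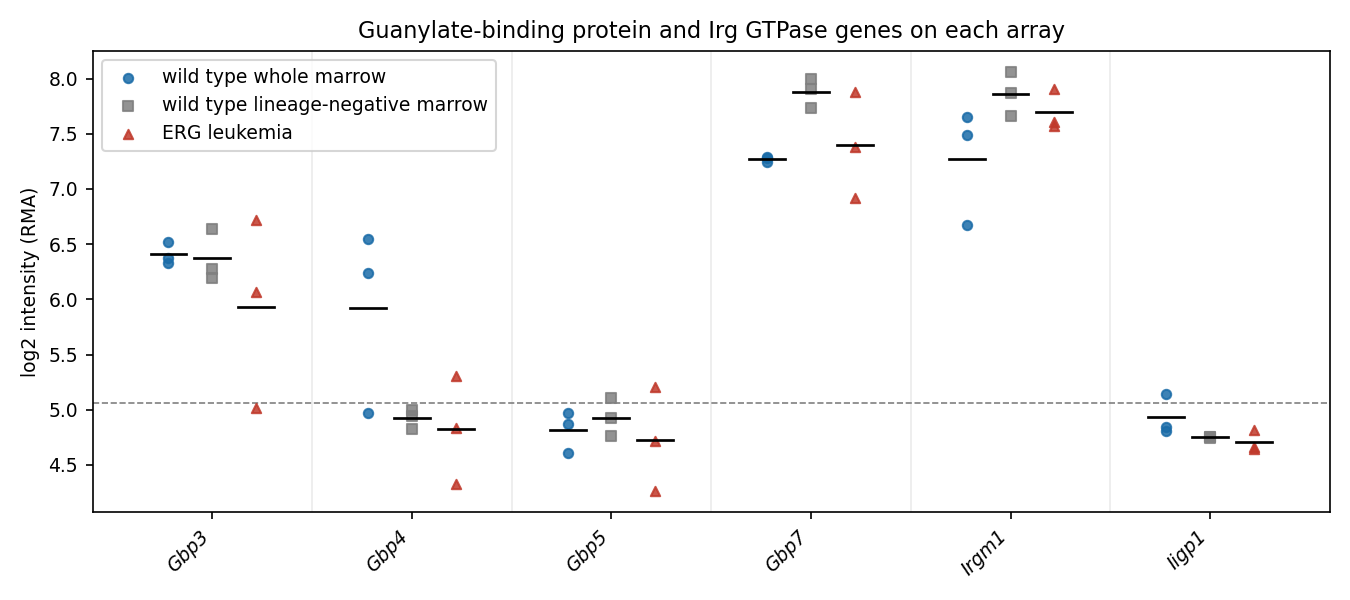
Log2 intensity (vertical axis) of the guanylate-binding protein and immunity-related GTPase genes on each array, with circles for whole marrow, squares for lineage-negative marrow, triangles for the leukemias, bars for means and a dashed line at 5.06. The triangles of Gbp3 run from 5.02 to 6.72, and 1 Gbp4 circle sits at 4.97 with the other groups.

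Over the 6 GTPases the median difference was -0.16 for leukemias against whole marrow, -0.18 against lineage-negative marrow and 0.04 between the wild type groups. The last became -0.09 with centring on the 75th percentile, the first became 0.01 with array weights and 0.05 without leukemia 2, and the second 0.00 without leukemia 2, so no direction is given for the family. Their summed intensity of 422 to 580 in whole marrow, 605 to 685 in lineage-negative marrow and 454 to 640 in the leukemias overlapped between leukemias and each wild type group.

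By median SD, the genes varied more between arrays of one group than all genes did, and the 2 sets were not matched for intensity. The median SD over 3 arrays was 0.26 for the 36 genes in whole marrow, 0.17 in lineage-negative marrow and 0.27 in the leukemias, against 0.13, 0.10 and 0.13 over all genes. Above the 90th percentile of all genes' SD lay 14, 3 and 14 of the 36. Lineage-negative arrays are pools of 3 mice, and the other arrays hold 1 mouse each. The widest genes were Oasl2 in whole marrow (SD 1.14), Rtp4 in lineage-negative marrow (0.37) and Rsad2 in the leukemias (1.08). In whole marrow, array 2, whose Xist and Eif2s3y levels were those of a male, was the lowest for Ifit3, Oasl2, Rsad2, Gbp4 and Irgm1. It was the highest for Oas1a, Oas2, Oas3, Oasl1 and Zbp1. Without that array, 13 of the 36 genes were lower in the leukemias (8.48% of all genes) and 15 in lineage-negative marrow (11.3%) than in whole marrow.

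By group means, 14 genes ran in the order whole marrow, lineage-negative marrow, leukemia from high to low. In the order whole marrow, leukemia, lineage-negative marrow ran 10. The share of all genes in each order was not counted, so whether these numbers are unusual cannot be told. The first set includes Rtp4, Usp18, Trim30a and Stat2, and the second Oas2, Oas3, Ifit3, Ddx58 and Parp14. For Usp18 the wild type groups, neighbours in the first order, differed by -0.14 (limma adjusted p = 0.598). For Rtp4, Trim30a and Stat2 the leukemias and lineage-negative marrow, also neighbours in it, did not differ past the threshold. The same groups are neighbours for Oas2, Oas3, Ddx58 and Parp14 and did not differ past the threshold there either, while Ifit3 passed between them and not between leukemia and whole marrow. The other 12 genes were spread over 4 orders, with Isg20 highest in the leukemias and Gbp7 highest in lineage-negative marrow.

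Of 130 other genes of the pathway, 109 were measured, and those counted as lower or higher passed the threshold. Their calls are given from the main model alone, and whether they hold under other processing or with an array left out is not given. This bears most on calls near the threshold, such as those of Ifna16, Ptpn6 and Nlrc5 below. Among 16 interferon ligands, 11 had a whole marrow mean under the median intensity and their log2 differences between leukemias and whole marrow ran from -0.71 to 0.16. Ifng, at 5.22, 4.98 and 5.44 in whole marrow, 4.85, 4.68 and 4.67 in lineage-negative marrow and 4.42, 4.54 and 4.56 in the leukemias, was the ligand that passed there, lower by at least 1.64-fold (-0.71 ± 0.12, limma adjusted p = 0.00353). In lineage-negative marrow Ifng (-0.48) and Ifna16 (-0.45, limma adjusted p = 0.0478) were lower than in whole marrow. Thus 1 of 16 ligands (6.25%) was lower in the leukemias and 2 of 16 (12.5%) in lineage-negative marrow. Among all genes the shares were 9.93% and 13%, so the ligands did not exceed them. No ligand passed between leukemias and lineage-negative marrow.

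Interferon receptor genes had differences of -1.79 to -0.56 between leukemias and whole marrow, and 4 of 6 passed as lower (9.93% of all genes were lower). Ifnlr1, the receptor chain for lambda interferons, read 7.22, 7.05 and 6.75 in whole marrow, 4.30, 4.23 and 4.38 in lineage-negative marrow and 5.45, 5.11 and 5.10 in the leukemias. The groups were fully apart, with the leukemias between the others. Leukemias differed from whole marrow by -1.79 ± 0.14 (limma adjusted p = 0.000422) and from lineage-negative marrow by 0.92 ± 0.14 (adjusted p = 0.00644). Ifngr2, a chain of the gamma receptor, was lower in the leukemias (-1.31 ± 0.31, adjusted p = 0.0157) and in lineage-negative marrow (-1.71 ± 0.31, adjusted p = 0.00273) than in whole marrow. All 6 receptor differences between lineage-negative and whole marrow were below 0, and 4 of them passed (13% of all genes were lower).

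Of 8 measured kinases and signal transducers, 4 were lower and 1, Tyk2, higher in leukemia than in whole marrow (9.93% and 14.6% of all genes). The lower genes were led by the transcription factors Irf1 (-1.47 ± 0.31, limma adjusted p = 0.0101) and Irf7 (-0.80 ± 0.20, adjusted p = 0.0198). Between the wild type groups 5 of 8 were lower (13% of all genes), again with Irf7 (-1.55) and Irf1 (-1.38) first, and none passed between leukemias and lineage-negative marrow. Among 10 inhibitors, the cytokine-induced Cish was higher (1.48 ± 0.32, adjusted p = 0.0106) and 2, led by the phosphatase Ptpn6 (-0.85 ± 0.26, adjusted p = 0.0459), were lower relative to whole marrow (14.6% and 9.93% of all genes). Between the wild type groups 4 of 10 were lower, among them Ptpn6 (-1.41) and Socs3 (-1.26), and 1 was higher (13% and 21.7% of all genes).

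The adaptor Mavs, through which Ddx58 and Ifih1 signal, was the 1 of 10 sensing adaptors and kinases that passed between leukemias and whole marrow, at 1.11 ± 0.25 (limma adjusted p = 0.0128). Among all genes, 14.6% were higher there. Tlr7, an endosomal RNA receptor, was 7.80, 8.01 and 7.88 in whole marrow, 5.29, 4.77 and 4.95 in lineage-negative marrow and 7.60, 6.67 and 7.59 in the leukemias. It was at least 4.86-fold higher in the leukemias than in lineage-negative marrow (2.28 ± 0.24, adjusted p = 0.00159). Between the wild type groups 4 of 10 were lower, led by Tlr7 (-2.89) and Tlr9 (-1.96), and Mavs was higher (13% and 21.7% of all genes). Among 12 antigen presentation targets, Ciita (-1.14, adjusted p = 0.0105), the master regulator of class II genes, and Nlrc5 (-0.44, adjusted p = 0.0435) had lower levels in leukemia than in whole marrow. These are 16.7% of the list, against 9.93% of all genes. Nlrc5 had 19 probe sets annotated with its symbol alone, and its value is that of the brightest. In lineage-negative marrow Ciita (-1.28) and Tapbp (-0.32) were lower (16.7%, against 13% of all genes) and 1 of the 12 was higher (8.33%, against 21.7%).

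Among 47 further interferon targets, 40 differences between leukemias and whole marrow were below 0, and 18 targets passed as lower and 2 as higher (9.93% and 14.6% of all genes). In lineage-negative marrow 42 were below 0, and 21 passed as lower and 2 as higher (13% and 21.7% of all genes). The median differences were -0.49 and -0.57. Ddx60, a helicase related to the sensors, was at least 5.43-fold lower in the leukemias (-2.44 ± 0.21, limma adjusted p = 0.000471), followed by Ifi27l2a (-1.97 ± 0.22, adjusted p = 0.000968). Between leukemias and lineage-negative marrow 3 were higher and 1 lower (2.95% and 5.74% of all genes). Ifitm6, a myeloid member of the interferon-induced transmembrane family, was 11.91, 12.10 and 11.50 in whole marrow, 7.13, 5.29 and 6.64 in lineage-negative marrow and 11.37, 10.13 and 11.37 in the leukemias. It was thus higher in the leukemias than in lineage-negative marrow by 4.60 ± 0.49 (adjusted p = 0.00159).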

How the data were processed

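The authors deposited linear intensity values that RMA in Partek had produced, per the submitters' processing notes. The versions and the genome build were not given in the sources used here. The design assumed log2 values, so the intensities were log2-transformed, with no further normalization and no filter on dim genes. Of 28853 probe sets, 21789 had 1 gene symbol, 1621 several and 5443 none. Only the first kind was used, and a gene with several was represented by its brightest probe set on average.

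One linear model held the 9 arrays, and the 3 comparisons were two-sided contrasts in it (limma 3.58.1 under R 4.3.3, eBayes without trend). Benjamini-Hochberg adjustment ran over 19938 genes, and genes passed at a value under 0.05. Errors are standard errors from that fit, with 3 arrays per group, a number that limits the precision. The script was tested on simulated data. Promoter windows came from RefSeq (GRCm38.p6), motifs were matched in Python 3.11.15, and figures were drawn with matplotlib 3.10.9.

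The genes, lists and tests were chosen with earlier results of these data known. Values on each array are given for all family members of Ifit, Oas, Mx, Gbp and immunity-related GTPases and for up to 3 called genes with the largest differences and the smallest change in each other class. Of each pathway list, the 2 largest called differences per comparison are named. Alternatives were cyclic loess, centring on the 75th percentile, genes with a group mean above the median alone, other choices of probe set, eBayes with trend, array weights, a fit of the 2 groups compared, a replicate block and leaving out each array. Cmpk2, Xaf1, Ifi27 and Tyk2 were named beyond this rule, after their values were seen.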

Additional observations from a re-analysis of the deposited data

How the results depend on the processing

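None of the interferon-induced genes described first that passed the threshold changed sign under any alternative. Calls of single genes from the pathway and marker lists are not given under the alternatives. In the leukemias against whole marrow, 10 of the 14 lower genes and Isg20 passed under all of them, and the 14 (9.93% of all genes) became 12 to 20 by processing, where 7.68% to 17.8% of all genes passed as lower, and 11 to 14 with 1 array left out (6.26% to 9.6%). The 1 higher gene became 2 with array weights (15.3% of all genes, from 14.6%) and stayed 1 with any array left out. Against lineage-negative marrow, the 2 higher genes (2.95% of all genes) became 4 with centring on the 75th percentile (3.59%), 4 with bright genes alone (5.84%), 8 with array weights (6.96%) and 1 to 3 with an array left out (1.34% to 4.15%). The 2 lower genes (5.74%) became 1 with cyclic loess (4.42%) and 1 to 3 with an array left out (2.46% to 5.89%), and Ifit3 and Usp18 passed throughout. Between the wild type groups, the 17 lower genes (13%) became 9 to 17 and the 2 higher genes (21.7%) 1 to 3 with an array left out (9.34% to 13.8% and 18.1% to 22.4%), and the higher genes became 1 with cyclic loess (16.3%) and 1 with centring (16.8%). The 8 with array weights were Ifit1, Ifit2, Ifit3, Oas2, Oas3, Zbp1, Parp14 and Rsad2. Beside the arrays named with each gene, leukemia calls against whole marrow were lost for Zbp1, Dhx58 and Bst2 with array weights (limma adjusted p = 0.205, 0.0969 and 0.072), for Mx1 with cyclic loess (0.0852) and for Mx1 and Zbp1 in the fit of the 2 groups compared (0.0933 and 0.093). Against lineage-negative marrow, Bst2 was lost with cyclic loess (0.0502) and Rsad2 in the fit of the 2 groups (0.0663). In that fit of the 2 groups Oas3 passed as higher (0.89, limma adjusted p = 0.023), so the count of higher genes stayed at 2. The cause of these changes was not tested. Bright genes alone is a fit of fewer genes.

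Centring on the 75th percentile moved the median of all genes between the wild type groups from -0.04 to -0.16. The share of all calls that were higher was 59.4%, 34% and 62.6% in the 3 comparisons (in the order above), 47.2%, 44.9% and 51.2% with cyclic loess and 47.7%, 44% and 50.3% with centring. Wild type arrays with the same replicate number came from different mice, and their deviations correlated at 0.31, -0.01 and -0.01. Arrays with unlike numbers correlated at -0.20 to 0.15. Whether the numbers pair the arrays cannot be told from so few values, and the main model did not pair them. With the replicate block over the 6 wild type arrays, 17 genes were lower and 2 higher, as without it.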

Other observations

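Trim12a, a TRIM-family gene among the further interferon targets, read 4.77 on whole marrow array 2 against 9.00 and 8.65 on the other whole marrow arrays, 5.21 to 6.25 in lineage-negative marrow and 6.54 to 6.75 in the leukemias (log2 intensity). Whole marrow array 2 was therefore the lowest of all 9 arrays for this gene, which was singled out after its values were seen. Its difference between leukemias and whole marrow was -0.85 ± 0.95 (limma adjusted p = 0.604).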
